A study of Rattus norvegicus with 26 samples.

Results

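Blood vessels of muscle are lined by endothelial cells and wrapped by mural cells, the smooth muscle cells of arterioles and the pericytes of capillaries. Transcripts of 34 genes of these cells and of the growth factors that act on them were followed in rat soleus, a calf muscle of mostly slow fibres. They were chosen by gene symbol from a table of 34034 genes: 19 endothelial genes, 11 mural genes and 4 angiogenic ligands. All 34 were in the table, and 31 passed the filter on low counts, namely 17 endothelial genes, 10 mural genes and the 4 ligands. The other members were Sox18, Nos3 and Rgs5.

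The animals were aged female rats of generation 44 from selectively bred lines of low (LCR) and high (HCR) running capacity. Sedentary rats had no wheel (LCR, n = 8, and HCR, n = 8). Running rats (LCR, n = 5, and HCR, n = 5) shared a cage with another rat and a running wheel, used by choice, over more than 5 months. Each library was taken as 1 rat, as the sample names read. No other treatment is named, the sources used here name no batch, and cages could not be a term of the fit, so running cannot be told apart from the cohort and cages in which it was given. The titles of 2 libraries, HCR running 5 and LCR running 5, name the other line. Their description and genotype were used. The called members, the members described for running and the counts below 0 are also given without these libraries.

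Vascular endothelial growth factor A (Vegfa) is made largely by muscle fibres and acts on endothelial cells through the receptor Kdr, while the receptor Flt1 binds Vegfa tightly and signals weakly. Angpt1, from mural and other stromal cells, activates the endothelial receptor Tek and steadies vessels, and Angpt2, made by endothelial cells themselves, competes with Angpt1 there in most settings. Capillary growth in muscle after endurance exercise is a known response of this system.

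Totals ran from 1.1 to 2.52 megacounts (M) per library, with a median of 1.72 M, from libraries primed from the poly(A) tail and so read near transcript 3' ends. Levels are counts scaled to library size (CPM). At this depth the rarest tested members rest on few counts: Angpt2 had 2 to 29 counts per library and Sox17 had 2 to 20. Endothelial genes were at a summed level of 825 ± 80.2 CPM in sedentary LCR and 845 ± 70.4 CPM in sedentary HCR (SD, n = 8 each), and of 778 ± 122 and 816 ± 63.5 CPM in running LCR and HCR (n = 5 each). Mural genes summed to 535 ± 74.4, 497 ± 44.7, 446 ± 43.4 and 494 ± 13.3 CPM in the same order. Most of the mural sum came from Abcc9 and Myh11, at means of 204 and 178 CPM in sedentary LCR. Abcc9 is also expressed in muscle fibres, so this sum is not a measure of mural cells alone. The defining endothelial markers Pecam1 and Cdh5 were counted in all 26 libraries, at no fewer than 46 and 20 counts. In bulk tissue, fewer cells of a type and less RNA per cell cannot be told apart.

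Many endothelial genes carry binding motifs of ETS factors, of which Erg is a member of the list. The promoters of the members were therefore searched on both strands for AGGAAG, a form of the ETS core. In the RefSeq promoter table (assembly GRCr8), 20 of the 34 members had an entry. The 250 bases before the start held AGGAAG in 8 of 11 endothelial genes (72.7%), namely Egfl7, Emcn, Eng, Erg, Flt1, Nos3, Robo4 and Tie1. It was in 1 of 7 mural genes (14.3%), Kcnj8, in 0 of 2 ligands, and in 29.5% of all 33469 promoters. The receptor genes Flt1, which holds AGGAAG, and Kdr, which does not, are shown with the guidance receptor gene Robo4. Flt1 and Kdr were picked with their running values known, and neither passed the threshold for running. A link between these letters and running was not tested. Capitals mark AGGAAG, 5' to 3' on the + strand, at chr12:12333180-12333429 for Flt1, chr14:32571813-32572062 for Kdr and chr8:45308489-45308738 for Robo4.
Flt1: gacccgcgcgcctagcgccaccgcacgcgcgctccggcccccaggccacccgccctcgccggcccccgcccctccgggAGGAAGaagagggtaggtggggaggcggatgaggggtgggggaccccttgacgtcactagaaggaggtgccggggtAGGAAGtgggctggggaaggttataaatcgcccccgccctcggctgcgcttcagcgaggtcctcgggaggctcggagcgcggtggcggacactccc
Kdr: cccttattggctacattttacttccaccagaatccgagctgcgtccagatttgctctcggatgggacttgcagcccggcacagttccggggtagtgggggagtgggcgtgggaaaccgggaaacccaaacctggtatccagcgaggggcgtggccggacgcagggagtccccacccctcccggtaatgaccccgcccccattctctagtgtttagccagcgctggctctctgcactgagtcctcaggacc
Robo4: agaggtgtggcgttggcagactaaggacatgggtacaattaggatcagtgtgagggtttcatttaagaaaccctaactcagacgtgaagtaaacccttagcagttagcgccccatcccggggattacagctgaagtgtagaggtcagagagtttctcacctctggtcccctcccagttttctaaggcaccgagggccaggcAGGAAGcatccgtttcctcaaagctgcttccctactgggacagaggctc
AGGAAG lay 172 and 96 bases before the start in Flt1 and 49 bases before it in Robo4, and these letters were not found on either strand of this window in Kdr. Other forms of the ETS core were not searched for. AGGAAG without its first and last letters does occur in the Kdr sequence above, on both strands, so Kdr lacks only the full form. The hypoxia response core ACGTG, also searched on both strands, was in 3 of the 20 members (15.0%), Robo4, Cnn1 and Notch3, against 16.6% of all promoters. The CArG box bound by serum response factor was in 0 of the 20 members and in 1.5% of all promoters. A match describes the letters and is not evidence of binding.

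The lines were compared first, HCR with LCR. Of the ligands, Angpt2 was higher in HCR. Of the endothelial genes, Sox17, a transcription factor of arterial endothelium, and Vwf, the clotting factor stored by endothelial cells, were lower in HCR. In sedentary rats 1 of 31 tested members passed the threshold of an adjusted p of 0.05, Angpt2, where 2.72% of all 10064 genes tested did, 1.57% higher and 1.15% lower in HCR. In the average over sedentary and running rats 3 members passed, against 3.75% of all genes: 1 was higher in HCR, against 2.03% of all genes, and 2 were lower, against 1.72%. In running rats alone 0 passed, against 0.626%, with 4 members at an unadjusted p under 0.05, against 8.58% (edgeR quasi-likelihood test). At an unadjusted p under 0.05 there were 8 members in sedentary rats and 6 in the average, against 15.9% and 15.7% of all genes. The sedentary lines did not overlap in 0 members (0.586% of all genes) and the running lines in 1, Sox17 (1.91%).

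Among the 4 ligands, Angpt2 ranged from 1.57 to 6.25 CPM in sedentary LCR (median 3.02) and from 5.04 to 10.1 CPM in sedentary HCR (median 6.19). All 8 sedentary HCR libraries lay above the sedentary LCR mean, and the ranges overlapped. Running LCR libraries 1 to 5 held 1.63, 4.87, 3.48, 2.53 and 4.40 CPM, and running HCR libraries 6.75, 5.42, 9.93, 5.80 and 2.04 CPM. Of running HCR 4 of 5 libraries were above every running LCR library, and the low one was HCR running 5, whose title names LCR. The line difference of Angpt2 was 1.99-fold in sedentary rats (1.00 on the log2 scale, SE 0.27, adjusted p = 0.0363, edgeR quasi-likelihood test) and 1.91-fold in the average (0.93 on the log2 scale, SE 0.23, adjusted p = 0.0121). In running rats the value was 0.87 (SE 0.36, adjusted p = 0.423). With the line taken from the title the running and averaged differences of Angpt2 were 1.09 (adjusted p = 0.715) and 1.04 (adjusted p = 0.0065), and without both libraries 1.11 (adjusted p = 0.331) and 1.05 (adjusted p = 0.00618).

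The sedentary call of Angpt2 was close to the threshold. Angpt2 passed the filter on low counts mainly through the HCR libraries, where it is higher. Without this filter its sedentary adjusted p was 0.0571 (edgeR quasi-likelihood test), and with only the 2 sedentary groups it did not pass the filter. The sedentary call held in 18 of 26 fits that each left out 1 library, with adjusted p from 0.0182 to 0.103. It was lost without sedentary HCR 2, 3 or 6 or sedentary LCR 2, 4, 5, 7 or 8. The averaged call held in all 26 such fits, with adjusted p from 0.0049 to 0.0464, and in all 9 other alternatives, the fit without a filter included.

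The other ligands did not pass in any comparison. Angpt1, the partner of Angpt2 at the receptor Tek, differed between the lines by -0.15 on the log2 scale in the average (SE 0.12, adjusted p = 0.595, edgeR quasi-likelihood test). Vegfa was at 127 ± 21.3 CPM in sedentary LCR, 126 ± 20 CPM in sedentary HCR, 113 ± 30.6 CPM in running LCR and 109 ± 29.9 CPM in running HCR. Its averaged line difference was -0.03, with an approximate 95% interval from -0.24 to 0.19. Vegfb, a relative of Vegfa that binds Flt1, ranged from 83.9 to 162 CPM in sedentary LCR (median 109) and from 48.7 to 120 CPM in sedentary HCR (median 79.0). These groups overlapped widely, and the difference of Vegfb, -0.40 (SE 0.16), missed the threshold (adjusted p = 0.181). Running LCR held 117, 126, 89.8, 107 and 82.7 CPM of Vegfb and running HCR 69.6, 97.6, 105, 132 and 103 CPM, with no separation.

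**Figure D1:**
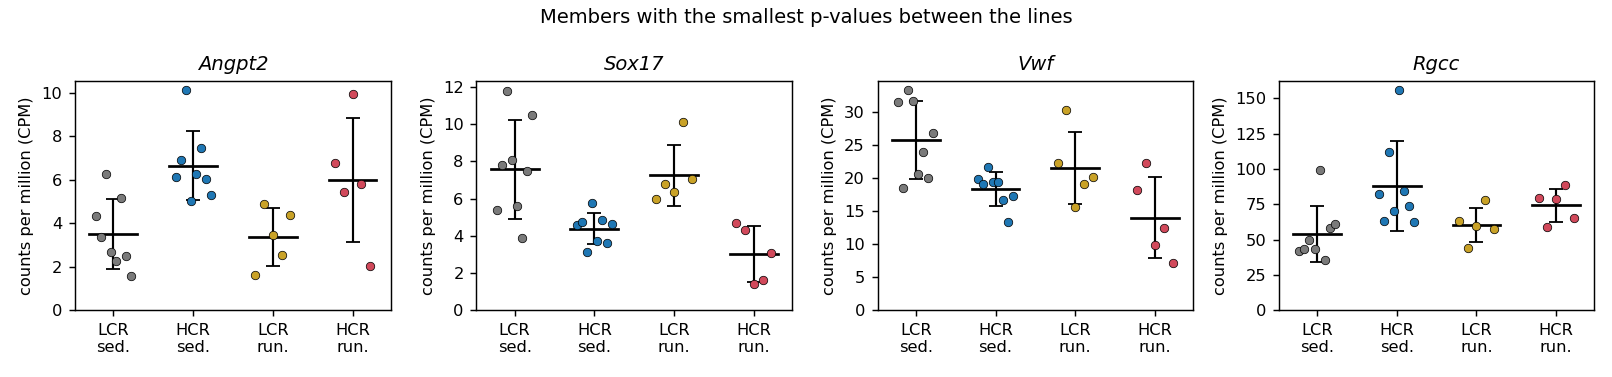
CPM (vertical axis, linear from 0) of Angpt2, Sox17, Vwf and Rgcc in each library (points) of sedentary and running LCR and HCR rats, with the group mean (bar) and SD (whiskers), 8 libraries in each sedentary and 5 in each running group. Angpt2 sits higher and Sox17 and Vwf lower in the HCR groups, and 1 sedentary LCR library stands above the others of its group in Rgcc, at 98.9 CPM.

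Among the transcription factors, Sox17 ranged from 3.88 to 11.8 CPM in sedentary LCR (median 7.66) and from 3.13 to 5.76 CPM in sedentary HCR (median 4.61). Running LCR libraries held 5.97, 6.81, 6.37, 10.1 and 7.04 CPM of Sox17, and running HCR libraries 4.67, 4.34, 1.42, 1.66 and 3.07 CPM. The running groups did not overlap, while the sedentary groups did. Averaged over activity, Sox17 in HCR was 0.512 times its level in LCR (-0.97 on the log2 scale, SE 0.20, adjusted p = 0.00279, edgeR quasi-likelihood test). In sedentary rats it was -0.78 (SE 0.23, adjusted p = 0.0622) and in running rats -1.15 (SE 0.33, adjusted p = 0.12). Sox17 passed the filter on low counts mainly through the LCR libraries, where it is higher, since no HCR library exceeded 5.76 CPM. The averaged call of Sox17 held in all 26 fits that left out 1 library. It also held in 8 of 9 other alternatives, the fit without this filter included. With the line taken from the title of the 2 conflicting libraries it was -0.78 (adjusted p = 0.061), and without both -0.97 (adjusted p = 0.0086).

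Erg, the ETS factor that marks nearly all endothelium, differed by -0.13 in the average (SE 0.11, adjusted p = 0.636, edgeR quasi-likelihood test). Sox18, a relative of Sox17, had 6 counts in all 26 libraries together, with 20 libraries at 0, and was not tested.

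Among junction, surface and secreted proteins of endothelium, Vwf ranged from 18.5 to 33.3 CPM in sedentary LCR (median 25.3) and from 13.3 to 21.6 CPM in sedentary HCR (median 19.2). All 8 sedentary HCR libraries lay below the sedentary LCR mean, with overlap of the ranges. Running LCR held 22.2, 30.2, 15.6, 19.0 and 20.2 CPM of Vwf and running HCR 18.2, 22.2, 9.93, 12.4 and 7.15 CPM. Averaged over activity, Vwf in HCR was 0.701 times its level in LCR (-0.51 on the log2 scale, SE 0.14, adjusted p = 0.0294, edgeR quasi-likelihood test). It was -0.47 in sedentary rats (SE 0.16, adjusted p = 0.124) and -0.55 in running rats (SE 0.23, adjusted p = 0.406).

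The call of Vwf depended on single running libraries. It was lost without HCR running 3 (adjusted p = 0.0696), HCR running 4 (0.0513), HCR running 5 (0.0622) or LCR running 2 (0.101). It was also lost without both libraries of conflicting title (adjusted p = 0.0748) and with the line taken from the title (0.289, edgeR quasi-likelihood test).

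Rgcc, a regulator of the cell cycle that is abundant in capillary endothelium, had values on the opposite side. It ranged from 35.5 to 98.9 CPM in sedentary LCR (median 46.8) and from 62.7 to 156 CPM in sedentary HCR (median 78.0). All 8 sedentary HCR libraries lay above the LCR mean, and 1 LCR library, number 5, lay within the HCR range well above its own group. The sedentary difference of Rgcc was 0.69 on the log2 scale (SE 0.20, adjusted p = 0.0671, edgeR quasi-likelihood test) and the averaged difference 0.49 (SE 0.16, adjusted p = 0.102), neither past the threshold. Without sedentary LCR 5 both passed, with adjusted p of 0.00389 and 0.0109. DESeq2 also called Rgcc in sedentary rats (adjusted p = 0.0169) and in the average (0.0363).

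The remaining 6 genes of this class were not called. Esam, an adhesion molecule of endothelial tight junctions, had the value of smallest p among them, 0.30 in the average (SE 0.11, adjusted p = 0.12, edgeR quasi-likelihood test), and was at 0.35 in sedentary rats (SE 0.13, adjusted p = 0.145). Pecam1, the adhesion molecule at endothelial contacts, differed by -0.12 in the average (interval from -0.31 to 0.07), and Cdh5, the cadherin of these contacts, by 0.08 (interval from -0.12 to 0.28). Cldn5, the tight junction claudin, differed by 0.09 (SE 0.12), Egfl7, a secreted endothelial matrix protein, by 0.08 (SE 0.11), and Emcn, a sialomucin of capillaries and veins, by -0.11 (SE 0.11).

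Among endothelial receptors, 0 of 7 tested passed between the lines. Flt1, the decoy-like receptor, was at 116 ± 12.4 CPM in sedentary LCR and 126 ± 19.6 CPM in sedentary HCR, and its averaged line difference was 0.20 (SE 0.09, adjusted p = 0.21, edgeR quasi-likelihood test). Kdr differed by 0.09 (interval from -0.11 to 0.30). Tek, the angiopoietin receptor, differed by 0.22 (SE 0.14) and its phosphatase Ptprb, which restrains Tek, by -0.15 (SE 0.09). Tie1, the partner of Tek, differed by -0.20 (SE 0.24), Eng, a coreceptor for bone morphogenetic proteins, by 0.10 (SE 0.10), and Robo4 by -0.05 (SE 0.14).

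Mural genes did not pass between the lines in any comparison. Their median averaged difference was 0.04 on the log2 scale, beside 0.08 for endothelial genes and 0.003 for all genes tested. Cspg4, the NG2 proteoglycan of pericytes, ranged from 7.76 to 25.7 CPM in sedentary LCR (median 17.9) and from 20.9 to 28.7 CPM in sedentary HCR (median 23.8). All 8 HCR libraries of Cspg4 lay above the LCR mean, and the difference of 0.38 (SE 0.17) did not pass (adjusted p = 0.275, edgeR quasi-likelihood test). Cnn1, a calponin of contractile smooth muscle, had the mural value farthest from 0 in sedentary rats, -0.73 (SE 0.32, adjusted p = 0.248).

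Pdgfrb, the receptor by which pericytes answer platelet-derived growth factor, was at 6.46 ± 2.12 and 6.57 ± 2.81 CPM in sedentary LCR and HCR. Its averaged line difference of 0.04 had an approximate 95% interval from -0.37 to 0.44, so moderate differences in either direction were not detectable at this depth. In the average the mural genes lay between -0.35 for Cnn1 (SE 0.28) and 0.19 for Mcam, an adhesion molecule of pericytes and endothelium.

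**Figure D2:**
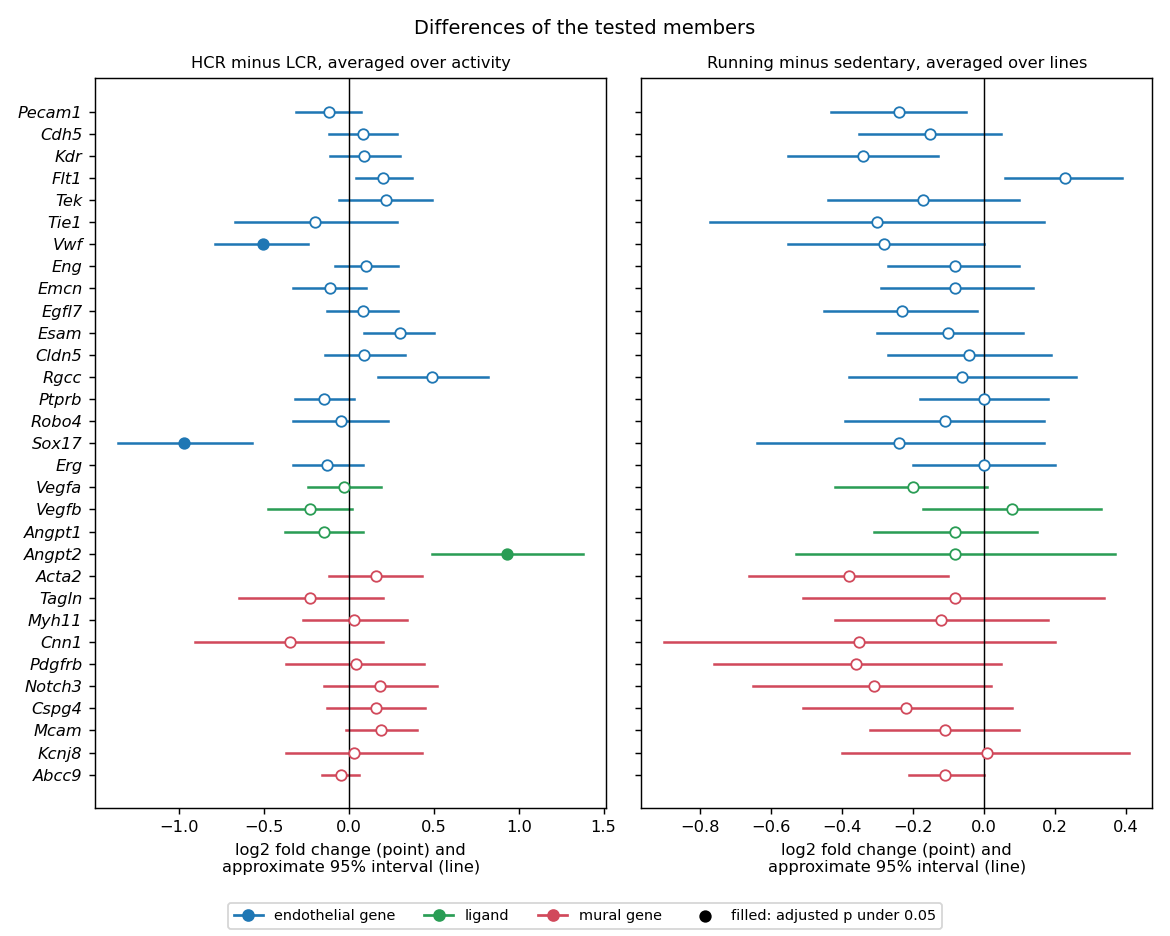
Log2 fold change (points) with approximate 95% interval (lines) of each of the 31 tested members, for HCR minus LCR averaged over activity at left and for running minus sedentary averaged over the lines at right, endothelial genes in blue, ligands in green and mural genes in red. Filled points, adjusted p under 0.05, are Angpt2, Sox17 and Vwf at left and none at right, where 28 of 31 points lie below 0.

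Running was compared with no wheel in each line and in the average over the lines. In the average 0 of 31 members passed the threshold, where 0.378% of all genes did, and 5 had an unadjusted p under 0.05, where 12.7% of all genes did (edgeR quasi-likelihood test). In LCR 0 members passed, against 0% of all genes, and in HCR 0, against 0.0994%, with 4 and 3 members at an unadjusted p under 0.05, beside 6.08% and 12.5% of all genes. DESeq2 and voom also called 0 members for running. Runners and sedentary rats overlapped in all 31 members in both lines, where 0.268% of all genes did not in LCR and 0.596% in HCR. The values leaned 1 way all the same: 28 of 31 members were below 0 in the average, 16 of 17 endothelial genes and 9 of 10 mural genes, while 51% of all genes were. In LCR and in HCR 23 members each were below 0, against 49.7% and 50.9% of all genes. The medians were small, -0.11 for endothelial and -0.17 for mural genes, beside -0.004 for all genes. Over all alternatives run, left-out libraries included, 13 to 16 endothelial and 8 to 10 mural genes were below 0, and without the 2 libraries of conflicting title 16 and 9 were. Leaving out 1 library gave medians from -0.17 (without HCR running 2) to -0.09 for endothelial and from -0.23 to -0.13 for mural genes. Members of 1 class covaried between libraries, so these counts are not independent observations.

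Among the receptors, Kdr and Flt1 had the smallest p-values for running in the average, with opposite signs. Kdr ranged from 29.6 to 45.7 CPM in sedentary LCR (median 37.4) and from 31.0 to 56.8 CPM in sedentary HCR (median 40.7). Running LCR held 25.5, 35.0, 30.1, 25.9 and 40.5 CPM of Kdr and running HCR 27.5, 39.6, 32.6, 29.8 and 24.5 CPM. All 5 running HCR libraries and 4 of 5 running LCR libraries lay below the mean of their sedentary line, with overlap in both lines. The averaged difference of Kdr was -0.34 (SE 0.11, adjusted p = 0.148, edgeR quasi-likelihood test), with -0.43 in HCR (SE 0.15, adjusted p = 0.203) and -0.25 in LCR (SE 0.15, adjusted p = 0.848).

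Flt1 was the only endothelial gene above 0 in the averaged comparison. It ranged from 100.0 to 135 CPM in sedentary LCR (median 116) and from 100.0 to 155 CPM in sedentary HCR (median 122). Running LCR held 95, 139, 105, 146 and 158 CPM of Flt1 and running HCR 136, 165, 169, 186 and 121 CPM. In running HCR 4 of 5 libraries lay above the sedentary mean, and the groups overlapped. The averaged difference of Flt1 was 0.23 (SE 0.08, adjusted p = 0.234, edgeR quasi-likelihood test), with 0.30 in HCR (SE 0.12, adjusted p = 0.273) and 0.15 in LCR (SE 0.12, adjusted p = 0.908). Neither receptor passed, so unequal change of the pair is a description of these libraries.

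Eng was at 70.4 ± 13.1, 67.7 ± 11.9, 59.6 ± 11.3 and 70.6 ± 7.58 CPM in sedentary LCR and HCR and in running LCR and HCR. Its running difference was -0.23 in LCR (SE 0.14, adjusted p = 0.837, edgeR quasi-likelihood test) and 0.07 in HCR (SE 0.13, adjusted p = 0.89). Nos3, the nitric oxide synthase of endothelium, had 131 counts in all libraries and was not tested. Its level was 3.29 ± 1.57 CPM in sedentary LCR, 3.36 ± 1.70 CPM in sedentary HCR, 2.54 ± 1.1 CPM in running LCR and 1.68 ± 1.30 CPM in running HCR, with overlapping ranges.

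Of the junction genes, Pecam1 ranged from 41.2 to 74.3 CPM in sedentary LCR (median 57.7) and from 40.8 to 65.8 CPM in sedentary HCR (median 48.2). Running LCR held 47.2, 48.2, 30.7, 53.7 and 54.5 CPM of Pecam1 and running HCR 42.0, 38.5, 46.1, 47.2 and 47.0 CPM. All 10 runners lay below the mean of their own sedentary line, within or below its range. The averaged difference of Pecam1 was -0.24 (SE 0.10, adjusted p = 0.263, edgeR quasi-likelihood test). Cdh5 was at 27.9 ± 3.23, 28.1 ± 5.98, 23.9 ± 3.26 and 26.1 ± 4.72 CPM in sedentary LCR and HCR and in running LCR and HCR, a difference of -0.15 (interval from -0.35 to 0.05).

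The ligands did not pass for running. Vegfa held 87.4, 88.1, 107, 120 and 162 CPM in running LCR and 89.8, 101, 76.6, 152 and 124 CPM in running HCR. Its sedentary libraries ranged from 113 to 174 CPM in LCR and from 96.2 to 160 CPM in HCR. Runners were spread from below to within those ranges, and the averaged difference of Vegfa was -0.20 (interval from -0.42 to 0.01, adjusted p = 0.451, edgeR quasi-likelihood test). Angpt2 differed by -0.08 (interval from -0.53 to 0.37), Angpt1 by -0.08 (SE 0.12) and Vegfb by 0.08 (interval from -0.17 to 0.33).

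Of the contractile genes of smooth muscle, Acta2, the smooth muscle actin, ranged from 15.6 to 36.1 CPM in sedentary LCR (median 29.1) and from 17.6 to 36.5 CPM in sedentary HCR (median 25.7). Running LCR held 15.7, 20.4, 14.5, 19.0 and 18.5 CPM of Acta2 and running HCR 21.8, 25.0, 23.4, 19.9 and 20.4 CPM. All 10 runners lay below the mean of their sedentary line, and 3 sedentary LCR libraries were as low as the runners. The difference of Acta2 was -0.56 in LCR (SE 0.20, adjusted p = 0.706, edgeR quasi-likelihood test), -0.20 in HCR (SE 0.20, adjusted p = 0.729) and -0.38 in the average (SE 0.14, adjusted p = 0.23).

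Myh11, the smooth muscle myosin, ranged from 98.6 to 264 CPM in sedentary LCR (median 180) and from 79.9 to 205 CPM in sedentary HCR (median 162). Running LCR held 100, 141, 117, 145 and 175 CPM of Myh11 and running HCR 156, 150, 185, 145 and 201 CPM. The running difference of Myh11 was -0.39 in LCR (SE 0.22, adjusted p = 0.829, edgeR quasi-likelihood test) and 0.15 in HCR (SE 0.22, adjusted p = 0.828). The difference between these responses was 0.54 (SE 0.31, adjusted p = 0.852).

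All 4 contractile genes were below 0 in LCR, with a median of -0.48, and 1 of 4 was in HCR, with a median of 0.03. For the difference between the responses 15 of 31 members were below 0, against 50.3% of all genes. This count rested on the 2 libraries of conflicting title: it was 5 with the line from the title and 6 without both. No difference between the lines' responses passed for any member or any of the 10064 genes (edgeR quasi-likelihood test), and 0 members had an unadjusted p under 0.05 there, where 5.88% of all genes did. Simulated differences between responses of 2-fold were recovered in 53% of genes and of 1.5-fold in 14%, so a difference of the size seen in Myh11 would often be missed.

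Without the 2 libraries of conflicting title, the averaged running differences were -0.36 for Kdr, 0.22 for Flt1, -0.28 for Pecam1, -0.38 for Acta2 and -0.21 for Myh11. In HCR they were -0.38 for Kdr and 0.37 for Flt1, and in LCR -0.34 for Kdr, 0.07 for Flt1 and -0.58 for Acta2. The difference between the responses of Myh11 was 0.57. As with all libraries, 0 members were called for running.

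**Figure D3:**
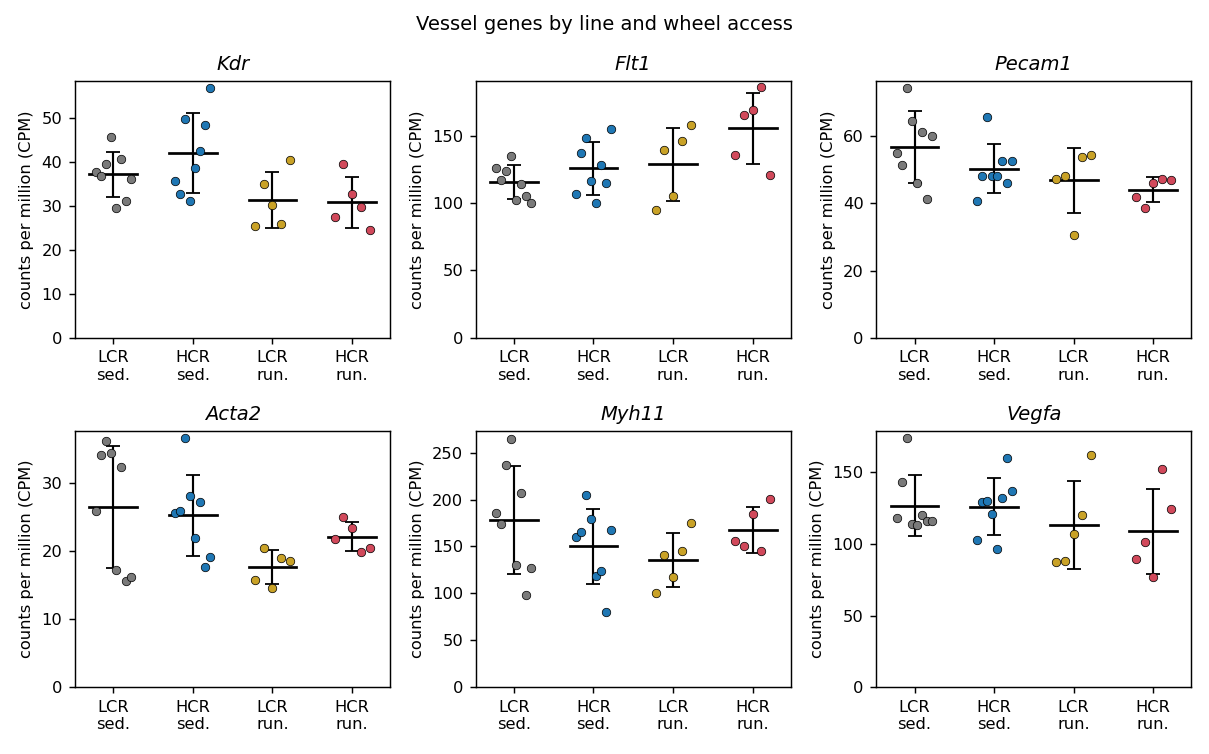
CPM (vertical axes, linear from 0) of Kdr, Flt1, Pecam1, Acta2, Myh11 and Vegfa in each library (points), with group mean (bar) and SD (whiskers), 8 libraries in each sedentary and 5 in each running group. Runners lie within or below the sedentary range of their line for Kdr, Pecam1 and Acta2. The highest LCR runner of Kdr, at 40.5 CPM, is above the sedentary LCR mean of 37.2 CPM. For Flt1, 3 of the 5 HCR runners lie above the sedentary range, and the highest library reached 186 CPM.

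Of the pericyte genes, Notch3, the Notch receptor of mural cells, ranged from 5.23 to 14.6 CPM in sedentary LCR (median 8.84) and was at 8.14, 6.33, 5.79, 6.95 and 5.28 CPM in running LCR. All 5 runners were below the sedentary mean and within its range. The difference of Notch3 was -0.52 in LCR (SE 0.25, adjusted p = 0.795, edgeR quasi-likelihood test) and -0.11 in HCR (SE 0.24, adjusted p = 0.898), where running libraries held 7.79, 6.51, 11.3, 11.6 and 6.13 CPM against a sedentary median of 8.85 CPM.

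Abcc9 encodes a subunit of ATP-sensitive potassium channels in pericytes and in muscle fibres, so its level is not a measure of pericytes alone. It ranged from 182 to 240 CPM in sedentary LCR (median 202) and held 175, 200, 171, 159 and 199 CPM in running LCR. The difference of Abcc9 there was -0.18 (SE 0.08, adjusted p = 0.763, edgeR quasi-likelihood test). Its partner Kcnj8, the pore of that channel in vessels, differed by 0.07 in LCR (SE 0.29) and by -0.06 in HCR (SE 0.29).

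Cspg4 in running HCR held 20.2, 10.3, 9.93, 25.7 and 24.5 CPM, beside a sedentary range from 20.9 to 28.7 CPM. Libraries 2 and 3 were low and the others near or within the sedentary range, and the difference of Cspg4, -0.43 (SE 0.21), did not pass (adjusted p = 0.393, edgeR quasi-likelihood test). Pdgfrb held 6.51, 5.84, 3.48, 3.79 and 6.16 CPM in running LCR and 6.23, 4.34, 4.96, 4.14 and 6.13 CPM in running HCR. Its averaged running difference was -0.36 (interval from -0.76 to 0.05). Rgs5, a regulator of G protein signalling typical of pericytes, had 124 counts in all and was not tested, at 3.63 ± 1.61, 2.13 ± 1.54, 2.92 ± 0.97 and 2.09 ± 1.79 CPM in sedentary LCR and HCR and in running LCR and HCR. The 14 tested members whose values were not given by sample lay between -0.35 and 0.01 for running in the average, and the smallest adjusted p among them was 0.364 for Egfl7.

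How members varied together within groups was described from log2 CPM over the 26 libraries after subtraction of each group's mean. The values share library, depth and scaling, so no test is given. The 136 pairs of endothelial genes had a median Pearson's r of 0.24, and 78.7% were positive, where all pairs of tested genes had a median of 0 with 49.8% positive. The 45 mural pairs had a median of 0.11 and the 170 pairs of an endothelial with a mural gene 0.08. The mural class held a contrast: the 6 pairs of contractile genes were all positive, from 0.32 to 0.78 with a median of 0.48, while the 15 pericyte pairs had a median of 0.05.

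The highest pair was Acta2 with Myh11, at r = 0.785, the actin and myosin of the same smooth muscle cells. Tie1 with Egfl7 and Cldn5 with Ptprb followed, each at 0.691. Kdr was at 0.661 with Tek and at 0.617 with Flt1, so the receptors that had opposite signs for running moved together within groups. Cdh5 with Kcnj8, at 0.676, was the highest pair across the classes. Rgcc stood apart from the other endothelial genes, with the lowest pair of all at -0.609 with Egfl7.

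**Figure D4:**
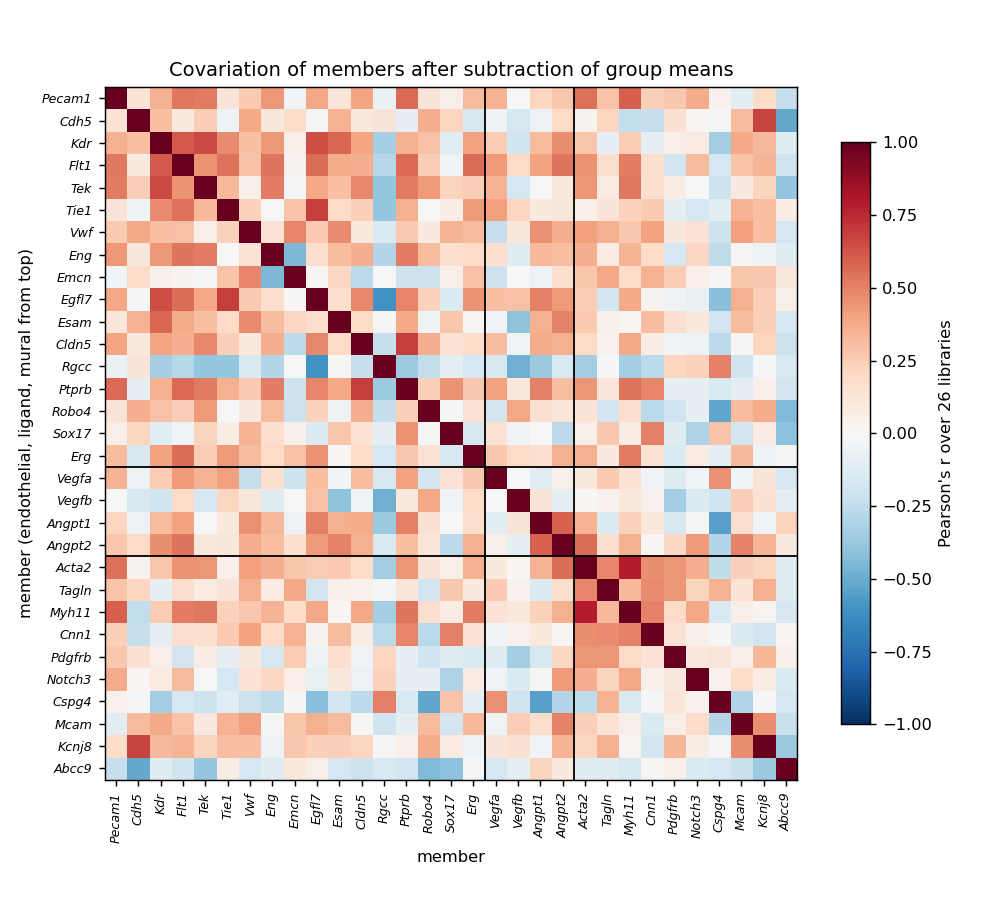
Pearson's r (colour, from -1 in blue to 1 in red) of each pair of the 31 tested members over 26 libraries, in log2 CPM with group means subtracted, genes ordered as endothelial, ligand and mural and divided by black lines. Most endothelial pairs are red (78.7% positive), Rgcc is mostly blue within that block, and the 4 contractile genes form a red corner at the start of the mural block.

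Further genes of the same system were read from lists. Unlike those of the members, the calls of these genes were not followed under the alternatives, left-out libraries and conflicting titles included. Of 17 tested genes of VEGF, angiopoietin and apelin signalling 1 passed, against 3.75% of all genes in the averaged line comparison. This was Esm1, an endothelial proteoglycan that marks tip cells of growing vessels. Esm1 was at 69.5 ± 27.9 and 49.4 ± 12.2 CPM in sedentary LCR and HCR and at 60.6 ± 21.9 and 25.1 ± 18.0 CPM in running LCR and HCR. Averaged over activity, Esm1 was lower in HCR (-0.92 on the log2 scale, SE 0.23, adjusted p = 0.025, edgeR quasi-likelihood test). The list's median in that comparison was -0.01, beside 0.003 for all genes.

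Of 10 tested inhibitors of angiogenesis 2 passed in opposite directions, against 2.72% of all genes between sedentary lines and 3.75% in the average. Timp3, a matrix-bound protease inhibitor that also blocks Kdr, was at 250 ± 33.5, 337 ± 30.6, 259 ± 37.9 and 327 ± 49.4 CPM in sedentary LCR and HCR and in running LCR and HCR. It was higher in HCR in sedentary rats (0.43, SE 0.09, adjusted p = 0.00463, edgeR quasi-likelihood test) and in the average (0.38, SE 0.07, adjusted p = 0.000898). Cd47, the thrombospondin receptor, was lower in HCR, by -0.73 in sedentary rats (SE 0.17, adjusted p = 0.0154) and -0.63 in the average (SE 0.14, adjusted p = 0.00676). In sedentary rats 9 of the 10 inhibitors were above 0, with a median of 0.33 beside 0.006 for all genes, and in running rats 2 of 10 were, with a median of -0.06 beside 0.003.

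Of 12 tested genes of nitric oxide and vascular tone 1 passed, against 3.75% of all genes in the averaged line comparison. This was Ddah1, the enzyme that breaks down an endogenous inhibitor of nitric oxide synthases. It was at 13.0 ± 5.06, 20.1 ± 3.53, 16.4 ± 7.85 and 25.8 ± 5.54 CPM in sedentary LCR and HCR and in running LCR and HCR, and higher in HCR in the average (0.63, SE 0.17, adjusted p = 0.0256, edgeR quasi-likelihood test). The median of the list was 0.15.

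For running in the average, 2 of 14 tested genes of serum response factor and the actin cytoskeleton passed, both lower in runners, against 0.378% of all genes. The 38 calls over all genes in that comparison became 9 to 63 when 1 library was left out. Actg1, a cytoplasmic actin, was at 20.6 ± 2.54, 32.4 ± 5.79, 15.4 ± 1.66 and 22.7 ± 3.24 CPM in sedentary LCR and HCR and in running LCR and HCR, an averaged running difference of -0.46 (SE 0.10, adjusted p = 0.0425, edgeR quasi-likelihood test). Actg1 was also higher in sedentary HCR than in sedentary LCR, by 0.65 (SE 0.12, adjusted p = 0.00086). Rhob, a small GTPase of endothelial and other cells, was at 14.1 ± 5.13, 18.5 ± 6.09, 10 ± 1.2 and 9.25 ± 2.42 CPM, a running difference of -0.76 (SE 0.17, adjusted p = 0.0425).

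The lists for segments of the vascular tree and for mural support held no called gene in any comparison. For running in the average, where 51% of all genes lay below 0, 5 of 5 arterial, 3 of 3 venous, 5 of 9 capillary and 16 of 20 further pan-endothelial genes were below 0, with medians of -0.36, -0.26, -0.01 and -0.14. So were 15 of 16 genes of Notch and platelet-derived growth factor signalling (median -0.14), 9 of 9 further pericyte genes (median -0.22), 7 of 12 further smooth muscle genes (median -0.07) and 8 of 11 basement membrane genes (median -0.12).

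In the capillary list Cd300lg, a mucin-like receptor of capillary endothelium, was at 5.42 ± 3.59, 5.95 ± 4.36, 1.44 ± 0.54 and 1.79 ± 1.41 CPM in sedentary LCR and HCR and in running LCR and HCR. Its averaged running difference of -1.82 (SE 0.47) missed the threshold (adjusted p = 0.0793, edgeR quasi-likelihood test). Ramp2, the adrenomedullin coreceptor of endothelium, differed between the lines by 0.33 (SE 0.10, adjusted p = 0.0634). Gja5, a connexin of arterial endothelium, differed between the running lines by -0.97 (SE 0.29, adjusted p = 0.159), at 9.73 ± 2.72 CPM in LCR and 4.99 ± 1.53 CPM in HCR. The arterial list did not share this direction throughout. Between the running lines 3 of its 5 tested genes were below 0 (median -0.12). Between sedentary lines 3 of 5 were above 0 (median 0.2), and in the averaged line comparison 4 of 5 were (median 0.09). Fbln5, an elastic fibre protein, differed by -0.60 for running (SE 0.25, adjusted p = 0.296).

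In the venous list Ephb4, the ephrin receptor of veins, differed by -0.79 for running in HCR (SE 0.29, adjusted p = 0.241, edgeR quasi-likelihood test) and Nr2f2, the transcription factor of venous identity, by -0.23 (SE 0.14, adjusted p = 0.502). Palmd differed by 0.22 for running in the average (SE 0.07, adjusted p = 0.153) and Icam2, an endothelial adhesion molecule, by 0.30 between the lines (SE 0.10, adjusted p = 0.0724). Jag1, a Notch ligand, differed by -0.56 for running in HCR (SE 0.18, adjusted p = 0.177), and Pdgfd, a ligand of Pdgfrb, by -0.54 between the lines (SE 0.23, adjusted p = 0.222).

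Among supporting genes, the basement membrane protein Nid1 differed by 0.52 between sedentary lines (SE 0.15, adjusted p = 0.0618, edgeR quasi-likelihood test) and the collagen Col4a1 by -0.43 for running in HCR (SE 0.15, adjusted p = 0.221). The smooth muscle lists were led by Synpo2, an actin-binding protein also found in striated muscle (-0.27 between the lines, SE 0.09, adjusted p = 0.109), and Ppp1r14a, an inhibitor of myosin phosphatase (1.44 for the difference between responses, SE 0.50, adjusted p = 0.835). Of further pericyte genes, Gucy1a1, a subunit of the nitric oxide receptor, differed by 0.42 between the lines (SE 0.16, adjusted p = 0.166) and the transcription factor Ebf1 by -0.38 for running in HCR (SE 0.17, adjusted p = 0.33).

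Markers of some other cells moved with the lines, and some lay below 0 for running as the vessel genes did. Over all genes, 2.72% were called between sedentary lines, 3.75% in the averaged line comparison, and 51% lay below 0 for running in the average. All 8 macrophage markers were above 0 in sedentary HCR, with 1 called, and their summed level was 193 to 309 CPM in sedentary LCR and 259 to 408 CPM in sedentary HCR, then 229 to 356 and 248 to 390 CPM in running LCR and HCR. Of 5 fast fibre genes 4 were below 0 in the averaged line comparison, 3 of them called, and they summed to 3280 to 8130, 727 to 5230, 2210 to 8120 and 674 to 1530 CPM in sedentary LCR and HCR and in running LCR and HCR. For running in the average 5 of 5 fast fibre genes (median -0.67), 5 of 5 Schwann cell genes (median -0.31), 3 of 3 adipocyte genes (median -0.59) and 6 of 8 fibro-adipogenic genes (median -0.13) were below 0, with 0 called, while 4 of 8 macrophage and 0 of 6 slow fibre genes were. Adipocyte genes summed to 73.2 to 202 and 108 to 310 CPM in sedentary LCR and HCR and to 63.3 to 140 and 93.6 to 188 CPM in running LCR and HCR, and Schwann cell genes to 148 to 241, 182 to 342, 195 to 219 and 122 to 237 CPM. The part of these cells in the differences of Angpt2, Sox17 and Vwf, and in the count of members below 0 for running, was not tested.

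The called macrophage marker was Folr2, a folate receptor of resident macrophages (0.73 in sedentary rats, SE 0.15, adjusted p = 0.00516, edgeR quasi-likelihood test). Of 5 tested lymphatic genes 1 was called in sedentary rats, against 2.72% of all genes: Pdpn, which fibroblasts also make (0.57, SE 0.16, adjusted p = 0.0451). The summed level of the lymphatic list ran from 96.7 to 143 CPM over all libraries. Most of it came from Lyve1, Prox1 and Pdpn, with 2184, 1618 and 1073 counts in all libraries together. Flt4, the lymphatic growth factor receptor, had 4 counts and was at 0 in 22 of 26 libraries. The sum is therefore not a measure of lymphatic vessels alone. The 8 fibro-adipogenic, 3 adipocyte, 3 red blood cell and 6 slow fibre genes tested had median averaged line differences of -0.06, 0.52, -0.12 and 0, and the red blood cell and slow fibre genes median running differences of 0.01 and 0.12. In these 4 lists the called genes were Pi16 of fibroblasts (-0.27 between the lines, SE 0.08, adjusted p = 0.0497) and the slow troponin Tnnc1 (0.40 for running, SE 0.09, adjusted p = 0.0425). The called fast fibre genes were Myh2, Tnni2 and Tnnt3, at -1.97, -1.81 and -1.45 between the lines.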

How the data were processed

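The values deposited by the authors are read counts for each gene, whole numbers without normalisation. Per the labels' protocols, libraries were primed by oligo(dT) and read from 1 end. Per the submitters' processing notes, STAR and featureCounts, with cutadapt, UMI-tools, FastQC and MultiQC, were used with the build mRatBN7.2 (rn7). Versions, collapse of molecular identifiers and use of strand are not given in the sources used here, so counts of overlapping genes are uncertain. Of its columns, 0 belonged to no sample, and no pair of libraries of the same group agreed within sampling noise. Pairs from different groups were not checked in this way.

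All 26 libraries entered 1 fit with edgeR 4.0.16 in R 4.3.3 (quasi-likelihood test, robust, TMM factors, filterByExpr by group, no covariate) over 10064 genes, with Benjamini-Hochberg adjustment at 0.05. The biological coefficient of variation was 0.156. The SE was taken as the absolute log2 difference over the root of its F statistic, and the approximate 95% interval is 1.96 SE to each side. CPM use TMM-scaled totals, and log2 CPM for correlations a prior count of 2. Values are given by sample for members called in any of 7 contrasts, the 3 of smallest p in each contrast, and Pecam1, Cdh5, Kdr, Vegfa, Vegfb, Acta2 and Pdgfrb. Of each further list the called genes, or the 2 of smallest p where none was called, are named, except in lists of other cells, where called genes only are. Of the genes this names, 1 is not reported here. Members and lists were chosen with earlier results of these data known. On simulated counts over 10064 genes, 87% of 2-fold and 53% of 1.5-fold changes were recovered between sedentary lines, 91% and 66% in each averaged comparison, 63% and 40% between running lines, 76% and 45% for running in LCR, and 78% and 32% for running in HCR. Each simulation changed 100 genes at each fold, drawn at random from all genes tested. Recovery may be lower for members of few counts, and in comparisons where fewer genes differ, such as those for running. Alternatives were other scaling factors, DESeq2 1.42.0, limma 3.58.1 voom, other filters, fits of the compared groups alone, a replicate block, the line in the title, and leaving out libraries.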

Additional observations from a re-analysis of the deposited data

Results flagged for a closer look

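Of 68 combinations of a group and a member described by sample, 3 held a library that stood apart from the rest of its group by Dixon's criterion at the 95% level, where chance gives about 1 in 20 groups. Rgcc in LCR sedentary 5 was at 98.9 CPM, with the next highest library of that group at 61.2 CPM. Sox17 in LCR running 4 was at 10.1 CPM, with the next at 7.04 CPM. Pdgfrb in LCR sedentary 2 was at 11.2 CPM, with the next at 6.94 CPM. Without LCR sedentary 5 the line difference of Rgcc passed the threshold, as given above. Sox17 passed in the averaged line comparison in each fit that left out 1 library.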

How the results depend on the processing

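In sedentary rats the number of members called between the lines, 1, was 2 with DESeq2, 2 with voom and 2 with the replicate block (Angpt2 and Rgcc in each), and 0 without a filter on low counts, where the adjusted p of Angpt2 was 0.0571. It was 0 with only the 2 groups compared, where Angpt2 did not pass the filter, and ranged from 0 to 2 when 1 library was left out. Averaged over activity, 3 members became 2 to 4 under the other alternatives and 2 to 4 when 1 library was left out. For running, 0 members were called under every alternative run. With the line from the title, the median endothelial difference between the responses to running was 0.16 against -0.02. No member's difference past the threshold changed sign under any alternative.

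Replicate numbers were not taken to pair the rats. Deviations of libraries with the same number had median correlations of 0.04, 0.05, -0.10 and 0 in the 4 pairs of groups, with highest values of 0.26, 0.16, 0.04 and 0.06. Libraries of different numbers were not compared, so pairing by number was not tested. The replicate block moved the mural median for running from -0.17 to -0.29 in the average and from -0.26 to -0.47 in LCR. The replicate block gave 4 called members in the averaged line comparison (Angpt2, Rgcc, Sox17 and Vwf) and 0 between running lines, for running in either line, on average or between responses.

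Counts over all genes moved more: 274 between sedentary lines became 182 to 337 when 1 library was left out, 63 between running lines became 0 to 92 under the other alternatives, 377 on average became 137 to 418, 10 for running in HCR became 4 to 38 when 1 library was left out and 10 to 79 otherwise, 38 for running on average became 9 to 63 and 19 to 75, and 0 for running in LCR became 0 to 2. Depth limits Angpt2, Sox17, Tie1, Cnn1, Tagln and Pdgfrb most, with at most 29 counts in any library, and Sox18, Nos3 and Rgs5 could not be tested.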
